A study of Homo sapiens with 8 samples.

Results

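The genes described are 10 targets of the transcriptional co-activators YAP and TAZ (CCN1, CCN2, ANKRD1, AMOTL2, AXL, AJUBA, FJX1, ARHGEF17, CRIM1 and F3). They were chosen by symbol, with earlier results of these data known, and all 10 were present among the 13036 genes of the expression table. The libraries came from LN229-TAZ(4SA), human glioblastoma cells named for a form of TAZ, and formed 4 groups of 2. The groups were cells exposed to 1 µM AF in medium lacking glucose for 1 h, cells in regular medium without AF for 1 h, cells under AF and glucose withdrawal for 7 h, and cells in regular medium for 7 h. All 4 groups carry the TAZ(4SA) label, so no library represents cells without it, and AF was always combined with glucose withdrawal, and their separate effects cannot be told apart. AF is given only as an abbreviation, and the title of the series concerns inhibition of thioredoxin reductase 1. The labels do not say whether paired libraries are separate cultures. All p-values therefore rest on variation between these libraries only, and that variation may be technical.

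YAP and TAZ carry the output of the Hippo pathway. Its kinase MST acts through the kinase LATS, which phosphorylates both co-activators. They are then held in the cytoplasm or degraded. Unphosphorylated, they enter the nucleus, bind TEAD factors on DNA and raise transcription of genes for matrix, adhesion and growth signalling. In the field, the suffix 4SA is used for TAZ whose LATS-phosphorylated serines were changed to alanine. Among the targets, CCN1 and CCN2 encode secreted matricellular proteins, AMOTL2 and AJUBA encode regulators that feed back on the Hippo pathway, and AXL encodes a receptor tyrosine kinase.

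TEAD factors recognise GGAATG, read as CATTCC on the opposite strand. For AP-1 factors, which often bind beside TEAD, the pattern TGANTCA was used, with any base allowed at N. Both motifs were searched on both strands in the RefSeq promoter windows of 300 bases (GRCh38.p14), which run from 250 bases before a gene's start to 50 bases after it. The windows covered 7 of the 10 targets with 10 start sites. A TEAD motif lay in 5 of the 10 windows, those of 5 genes (CCN2, ANKRD1, AMOTL2, AXL and AJUBA). It lay in 14% of all 35116 windows and in 11.4% of the 15284 windows of genes in the expression table. An AP-1 motif lay in the windows of ANKRD1 and F3, against 7.71% of all windows and 5.17% of those of genes in the expression table. For AMOTL2, AXL and AJUBA the window with the motif belongs to 1 of 2 annotated starts. No motif of either kind was found in the window of FJX1. These are matches of letters and not measured binding. The stretches below hold the repeated matches of CCN2, ANKRD1 and F3 and the single match of AMOTL2. They were picked with the 7 h results known: CCN2 and AMOTL2 stayed low in treated cells, whereas ANKRD1 and F3 did not. AXL and AJUBA, with a TEAD match, and FJX1, with none, also stayed low and are not shown. A link between these motifs and the levels at 7 h was not tested. Capitals mark the matched motifs, and each sequence is printed 5′ to 3′ on the gene's own strand, which is the minus strand for all 4 genes.
CCN2, chr6:131951373-131951622: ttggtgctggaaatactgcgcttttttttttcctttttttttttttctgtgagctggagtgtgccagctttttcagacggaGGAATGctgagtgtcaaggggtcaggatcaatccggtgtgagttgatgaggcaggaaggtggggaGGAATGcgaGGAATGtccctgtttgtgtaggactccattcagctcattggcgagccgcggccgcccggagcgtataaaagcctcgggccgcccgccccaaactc
ANKRD1, distal part, chr10:90921276-90921337: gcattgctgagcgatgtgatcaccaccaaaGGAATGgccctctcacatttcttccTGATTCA
ANKRD1, proximal match, chr10:90921198-90921227: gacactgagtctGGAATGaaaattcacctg
AMOTL2, chr3:134374499-134374528: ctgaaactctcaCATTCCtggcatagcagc
F3, chr1:94541801-94542009: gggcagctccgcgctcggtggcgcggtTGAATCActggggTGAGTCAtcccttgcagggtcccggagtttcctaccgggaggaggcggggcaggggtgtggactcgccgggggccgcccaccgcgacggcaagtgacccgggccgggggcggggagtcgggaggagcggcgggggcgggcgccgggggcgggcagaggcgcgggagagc
The 3 TEAD matches of CCN2 began 169, 104 and 95 bases before the start. Those of ANKRD1 began 220 and 128 bases before it, with the AP-1 match at 195 bases. The match of AMOTL2 began 69 bases before its start, and the AP-1 matches of F3 began 223 and 210 bases before its start. Annotated exons of the same gene overlap up to 189 of the 250 bases before the ANKRD1 start. For the starts with a match, they overlap up to 147 of these bases in AMOTL2 and up to 250 in AJUBA. Matches there can therefore lie in exons.

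The libraries held 27731776 to 45811965 reads in the listed genes. Levels are given as CPM, that is reads scaled to a common library size, and 3 reads, the upper limit behind a count of 0, were worth 0.0626 to 0.129 CPM. Within each group the libraries have the letters A and B as names, and values follow that order. Of 7 glioblastoma and mesenchymal markers 6 were listed, and CHI3L1 was not. Of these, VIM (2769 ± 54.1 to 3702 ± 43.0 CPM over the groups), CD44 and NES were abundant. The astrocyte marker GFAP stood at 0.495 ± 0.0801 to 1.14 ± 0.278 CPM (mean ± SD, n = 2). The neural progenitor marker SOX2 stood at 40.7 ± 3.12 and 19.7 ± 2.16 CPM in treated and regular cells at 1 h, and at 20.9 ± 2.34 and 125 ± 7.30 CPM in treated and regular cells at 7 h. The oligodendrocyte lineage marker OLIG2 stood at 16.5 ± 0.387 and 15.7 ± 0.659 CPM in treated and regular cells at 1 h, and at 16.2 ± 0.311 and 6.83 ± 0.329 CPM in treated and regular cells at 7 h. Of 10 markers of other cells 6 were listed, and their summed level was 89.2 and 89.3 CPM in treated and 94.0 and 96.7 CPM in regular libraries at 1 h, and 181 and 189 CPM in treated and 80.7 and 75.9 CPM in regular libraries at 7 h. Of that sum KRT18 made up 117 ± 1.33 CPM and RBFOX3 made up 26.9 ± 2.49 CPM in treated cells at 7 h, against 50.4 ± 1.8 and 0.506 ± 0.0957 CPM in regular cells; the part of these shifts, SOX2 and OLIG2 included, in the results below was not tested. Because the libraries were not strand-marked, reads of antisense genes annotated at CCN2, AXL, ARHGEF17 and CRIM1 cannot be told apart from reads of the targets, and another protein-coding gene model on the same strand overlaps AJUBA. In bulk RNA, fewer cells with a transcript and less of it per cell cannot be told apart.

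The comparison at 1 h asked how the targets responded early to AF without glucose. All 10 targets were lower in treated than in regular cells (limma, Benjamini-Hochberg adjusted p under 0.05), and 7 of them were at least 2-fold lower. Over all 13028 tested genes 20.7% were called lower, and 2.03% were both called and at least 2-fold lower. The median log2 difference of the targets was -2.0, against 0.01 over all tested genes. ANKRD1 had the lowest difference of all tested genes, CCN2 the 4th lowest, CCN1 the 14th and F3 the 17th, whereas AXL ranked 2177th. The place of ANKRD1 rests on the small prior, since its treated libraries were near 0: with 2 CPM added its difference was -2.41, while that of CCN2 lay between -4.57 and -4.42 in every alternative.

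At 7 h the targets had separated. Of the 10, 8 were lower in treated cells, where 41.1% of all tested genes were called lower, and ANKRD1 and F3 were higher, where 40.5% were called higher. The median log2 difference of the targets at 7 h was -1.24, against -0.01 over all tested genes. Of the 8, 6 were at least 2-fold lower, as were 11.5% of all tested genes. By the definition used here, a target called lower at 1 h stayed low if it was again called lower at 7 h. It returned otherwise, and by this rule 8 stayed low and 2 returned. None of the 4 groups was sampled before exposure, so these terms refer to regular culture of the same time and not to a starting level. Among the 8, CCN1 was lower by the least at 7 h (-0.17, against -3.13 at 1 h). The split is a description of these libraries. The level in regular culture also moved between 1 h and 7 h for every target, with 7 lower and 3 higher at 7 h (30.8% and 30.7% of all tested genes), and 5 were at least 2-fold lower (4.7% of all tested genes). Within treated cells, 7 targets were lower and 3 were higher at 7 h than at 1 h (40.7% and 36.9% of all tested genes), and 3 were at least 2-fold lower (8.71% of all tested genes). Quantile normalization and scaling to the summed reads of the table (total-read scaling) were run as alternatives; the second shifted the median log2 difference of all genes by 0.07 at 1 h and -0.31 at 7 h.

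**Figure D1:**
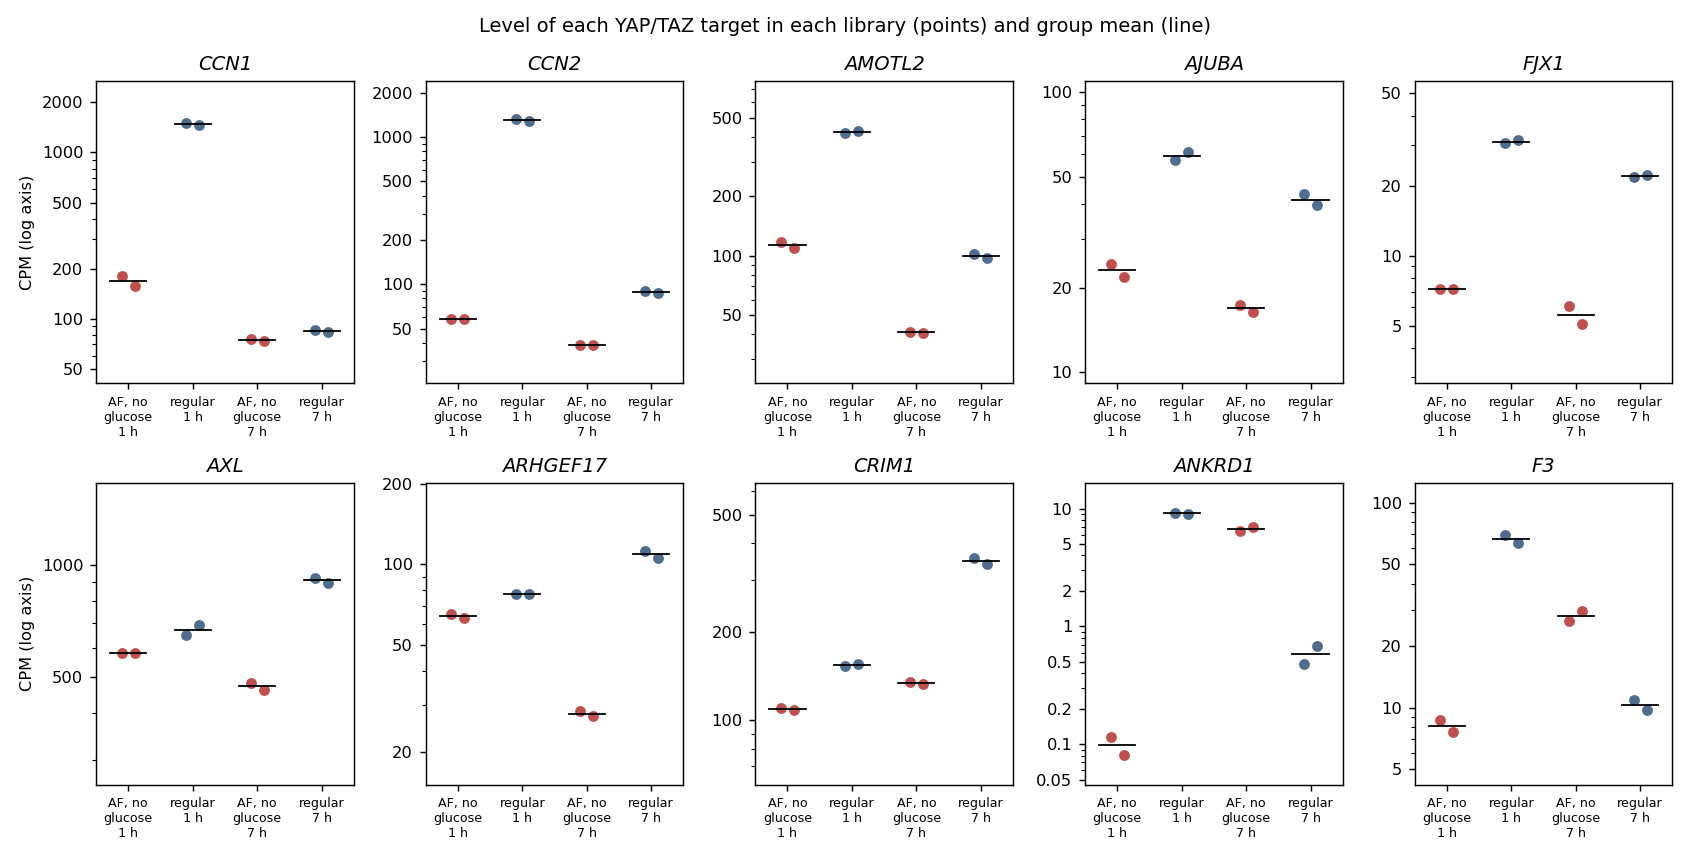
Level of each target in CPM (log axis, different range in each panel) in treated (red) and regular (blue) libraries at 1 h and 7 h; points are the 2 libraries of a group and lines are their means. The groups did not overlap for any target. With 2 libraries per group this is not read as a result, since its share over all genes was not counted. CCN1 in regular culture at 1 h stands at 1495 and 1466 CPM above all other groups. ANKRD1 and F3 are the targets whose treated libraries at 7 h lie above the regular ones.

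CCN1 (Entrez 3491; chr1:85580761-85583950, plus strand) encodes a secreted matricellular protein that binds integrins. At 1 h it stood at 180.2 and 158 CPM in treated libraries, against 1495 and 1466 CPM in regular libraries. At 7 h it stood at 75.6 and 73.9 CPM in treated libraries, against 85.3 and 83.3 CPM in regular libraries. Regular cells at 1 h were thus high and the other 3 groups low. The log2 difference between treated and regular cells was -3.13 at 1 h (SE 0.04; limma adjusted p = 7.85e-21) and -0.17 at 7 h (SE 0.04; adjusted p = 0.0016); under total-read scaling the 7 h value was -0.49. These differences differed from each other by 2.96 (SE 0.06; limma adjusted p = 1.58e-18). The narrower difference at 7 h did not come with a higher level in treated cells, which changed by -1.17 between 1 h and 7 h, while regular cells changed by -4.13, to 5.69% of their level at 1 h.

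CCN2 (Entrez 1490; chr6:131948176-131951372, minus strand) encodes a matricellular protein of the same family, known as connective tissue growth factor, and its promoter held the 3 TEAD matches shown above. Treated libraries had 58.02 and 58.07 CPM at 1 h, against 1330.1 and 1282 CPM in regular libraries. At 7 h they had 38.7 and 38.5 CPM, against 90.2 and 87.8 CPM in regular libraries. The order of the groups differed from that of CCN1, since regular cells at 7 h lay above treated cells at 1 h. The log2 difference was -4.49 at 1 h and -1.20 at 7 h (SE 0.03 each; limma adjusted p = 5.12e-25 and 7.07e-17), a gap narrower by 3.29 (SE 0.05) at 7 h. Treated cells at 7 h held 2.96% of the level of regular cells at 1 h, and regular cells at 7 h held 6.81% of it.

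AMOTL2 (Entrez 51421; chr3:134355345-134375417, minus strand) encodes an angiomotin family protein that binds YAP and TAZ and retains them outside the nucleus. It had 118 and 109 CPM in treated libraries at 1 h, against 417 and 426 CPM in regular libraries. At 7 h it had 40.96 and 40.88 CPM in treated libraries, against 103 and 97.6 CPM in regular libraries. The course was like that of the CCN genes in direction: the level was lower at 7 h than at 1 h in treated cells (log2 difference -1.47) and in regular cells (-2.08). The treated minus regular difference was -1.90 at 1 h (SE 0.04; limma adjusted p = 4.18e-18) and -1.29 at 7 h (SE 0.04; adjusted p = 2.35e-16), a gap narrower by 0.61 (SE 0.06; adjusted p = 1.14e-08), or by 0.22 under total-read scaling.

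AJUBA (Entrez 84962; chr14:22971177-22982551, minus strand) encodes a LIM domain protein of cell junctions that binds and restrains LATS kinases. It had 24.4 and 21.8 CPM in treated libraries at 1 h, against 57.4 and 61.0 CPM in regular libraries, and 17.4 and 16.5 CPM in treated libraries at 7 h, against 43.3 and 39.5 CPM in regular libraries. Both treated groups lay below both regular groups. The log2 difference was -1.36 at 1 h (SE 0.06; limma adjusted p = 1.14e-12) and -1.28 at 7 h (SE 0.06; adjusted p = 3.44e-13). The difference between the times, 0.07, did not pass (95% interval -0.12 to 0.26; limma adjusted p = 0.483), and under total-read scaling it became -0.31 and passed.

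FJX1 (Entrez 24147; chr11:35618460-35620865, plus strand) is the human relative of Drosophila four-jointed, a Golgi kinase that acts on the cadherins Fat and Dachsous upstream of Hippo signalling. Treated libraries had 7.17 and 7.22 CPM at 1 h, against 30.5 and 31.3 CPM in regular libraries, and 6.07 and 5.11 CPM at 7 h, against 21.9 and 22.3 CPM in regular libraries. As for AJUBA, the treated groups lay below the regular groups at both times. The log2 difference was -2.10 at 1 h and -1.98 at 7 h (SE 0.08 each; limma adjusted p = 8.30e-14 and 2.71e-14). The difference between the times was 0.12 (95% interval -0.13 to 0.37; limma adjusted p = 0.378). It became -0.26 under total-read scaling and 0.24 without treated 7 h library B, and it passed in both cases.

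AXL (Entrez 558; chr19:41219223-41261766, plus strand) encodes the receptor tyrosine kinase of the ligand GAS6. It had 581 and 580 CPM in treated libraries at 1 h, against 651 and 689 CPM in regular libraries. At 7 h it had 481 and 463 CPM in treated libraries, against 924 and 894 CPM in regular libraries. Regular cells were therefore highest at 7 h and treated cells lowest at 7 h. The log2 difference was -0.21 at 1 h (SE 0.03; limma adjusted p = 5.16e-05) and -0.95 at 7 h (SE 0.03; adjusted p = 1.30e-15), a gap wider by 0.74 at 7 h (the difference of the differences was -0.74, SE 0.05; adjusted p = 2.94e-11; -1.13 under total-read scaling).

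ARHGEF17 (Entrez 9828; chr11:73308276-73369388, plus strand) encodes a guanine nucleotide exchange factor of small GTPases that act on the actin cytoskeleton. It had 65.2 and 63.1 CPM in treated libraries at 1 h, against 77.6 and 77.4 CPM in regular libraries. At 7 h it had 28.3 and 27.2 CPM in treated libraries, against 112 and 106 CPM in regular libraries. From 1 h to 7 h treated cells changed by -1.21 on the log2 scale and regular cells by 0.49, so the groups moved apart in opposite directions. The log2 difference between them was -0.27 at 1 h and -1.97 at 7 h (SE 0.04 each; limma adjusted p = 4.65e-05 and 9.01e-19), and the 7 h difference was lower than the 1 h difference by 1.70 (difference -1.70, SE 0.06; adjusted p = 5.01e-15).

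CRIM1 (Entrez 51232; chr2:36355778-36551135, plus strand) encodes a transmembrane protein with cysteine-rich repeats that binds bone morphogenetic proteins. It had 109.7 and 108.7 CPM in treated libraries at 1 h, against 153 and 156 CPM in regular libraries, and 135 and 133 CPM in treated libraries at 7 h, against 357 and 339 CPM in regular libraries. Regular cells at 7 h were the highest group, and treated cells at 7 h remained below regular cells at 1 h. The log2 difference was -0.50 at 1 h and -1.38 at 7 h (SE 0.03 each; limma adjusted p = 4.86e-10 and 6.07e-18), with a difference of the differences of -0.88 (SE 0.05). The change of CRIM1 in treated cells from 1 h to 7 h, 0.29, turned to -0.08 under total-read scaling. The gene FEZ2 overlaps CRIM1 on the opposite strand, so reads of the overlap cannot be told apart.

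ANKRD1 (Entrez 27063; chr10:90912096-90921087, minus strand) encodes an ankyrin repeat protein that acts as a nuclear cofactor and, in muscle, at the sarcomere. It was covered by few reads. In treated libraries at 1 h it had 5 and 3 reads (0.114 and 0.0817 CPM, at about the limit of 3 reads), against 303 and 408 reads (9.21 and 9.02 CPM) in regular libraries. In treated libraries at 7 h it had 150 and 219 reads (6.45 and 6.99 CPM), against 23 and 31 reads (0.480 and 0.684 CPM) in regular libraries. Treated cells were thus the lowest group at 1 h and, at 7 h, lay between the regular groups, above regular cells of the same time. The ratio of treated to regular cells, from summed reads, was 0.0109 at 1 h (95% counting interval 0.00469 to 0.0216) and 11.7 at 7 h (8.76 to 15.8); such intervals cover counting error only.

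On the fitted scale, ANKRD1 differed by -5.94 at 1 h (SE 0.22; limma adjusted p = 3.32e-14) and by 3.43 at 7 h (SE 0.22; adjusted p = 2.53e-11). Because 1 group was near 0, the size of these values depends on the prior count: with 2 CPM added they became -2.41 and 1.76. The difference of the differences, 9.38 (SE 0.32; 4.16 with 2 CPM added), was the highest of all tested genes. Treated cells at 7 h held 68.1-fold the ANKRD1 level of treated cells at 1 h (95% counting interval 34.2 to 159), and 73.7% of the level of regular cells at 1 h.

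F3 (Entrez 2152; chr1:94529173-94541759, minus strand) encodes tissue factor, the cell-surface receptor of factor VII that starts blood coagulation. It had 8.65 and 7.57 CPM in treated libraries at 1 h, against 69.5 and 63.9 CPM in regular libraries. At 7 h it had 26.4 and 29.6 CPM in treated libraries, against 10.9 and 9.75 CPM in regular libraries. The groups stood in the same order as for ANKRD1. The log2 difference was -3.03 at 1 h and 1.43 at 7 h (SE 0.08 each; limma adjusted p = 1.18e-16 and 2.27e-12), and these differed by 4.47 (SE 0.11; adjusted p = 2.12e-17), the 28th highest value of all tested genes. F3 in treated cells at 7 h was 3.45-fold its level at 1 h, and it reached 42% of the level of regular cells at 1 h.

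**Figure D2:**
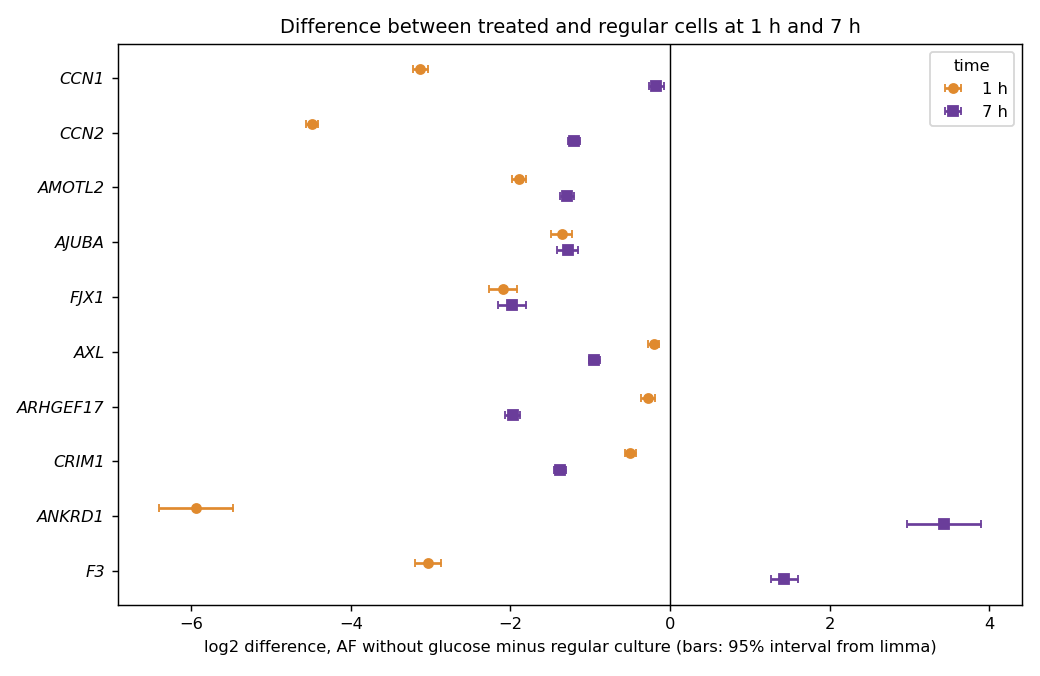
Log2 difference between treated and regular cells for each target at 1 h (circles) and 7 h (squares), with 95% intervals from limma. All 10 values at 1 h lie left of 0; at 7 h ANKRD1 (3.43) and F3 (1.43) lie right of 0, and CCN1 (-0.17) lies closest to 0.

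Across the set, the signed treated minus regular difference rose from 1 h to 7 h for 5 targets (CCN1, CCN2, AMOTL2, ANKRD1 and F3). It fell for 3 (AXL, ARHGEF17 and CRIM1), where 36.7% and 37% of all tested genes were called in these directions. ARHGEF17 was the target whose difference was at least 2-fold lower at 7 h than at 1 h (11.5% of all tested genes). The remaining 2 were AJUBA and FJX1. For CCN1, CCN2 and AMOTL2 the narrowing went with lower levels at 7 h in both treated and regular cells. For ANKRD1 and F3 the difference changed sign, with higher levels at 7 h in treated cells (log2 differences 5.50 and 1.78) and lower levels in regular cells (-3.87 and -2.69). AXL, ARHGEF17 and CRIM1 had higher levels in regular cells at 7 h than at 1 h, by 0.44, 0.49 and 1.18. In every target the mean of treated cells at 7 h lay below that of regular cells at 1 h, at 2.96% (CCN2) to 86.8% (CRIM1) of it.

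**Figure D3:**
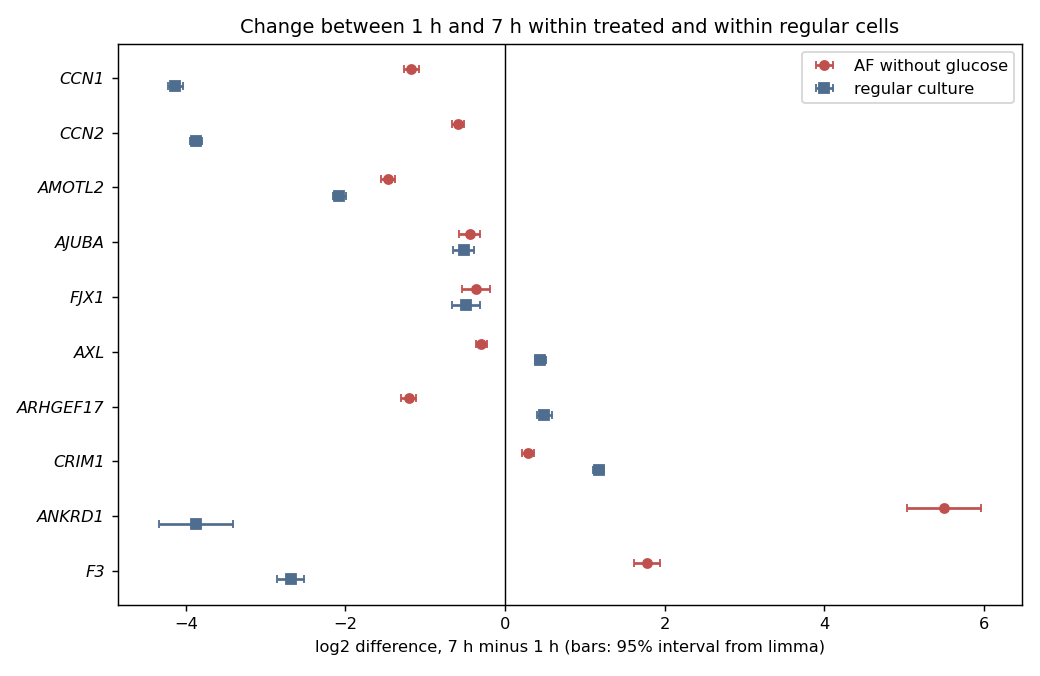
Log2 difference between 7 h and 1 h within treated cells (circles) and within regular cells (squares), with 95% intervals from limma. ANKRD1 and F3 rose in treated and fell in regular cells, ARHGEF17 and AXL fell in treated and rose in regular cells, and CCN1 and CCN2 fell in both, by more in regular cells.

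The 2 libraries of a group lay close together: for the 9 targets other than ANKRD1 the higher library was at most 1.19 times the lower one, with a median of 1.04, and for ANKRD1 it was at most 1.42 times.

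**Figure D4:**
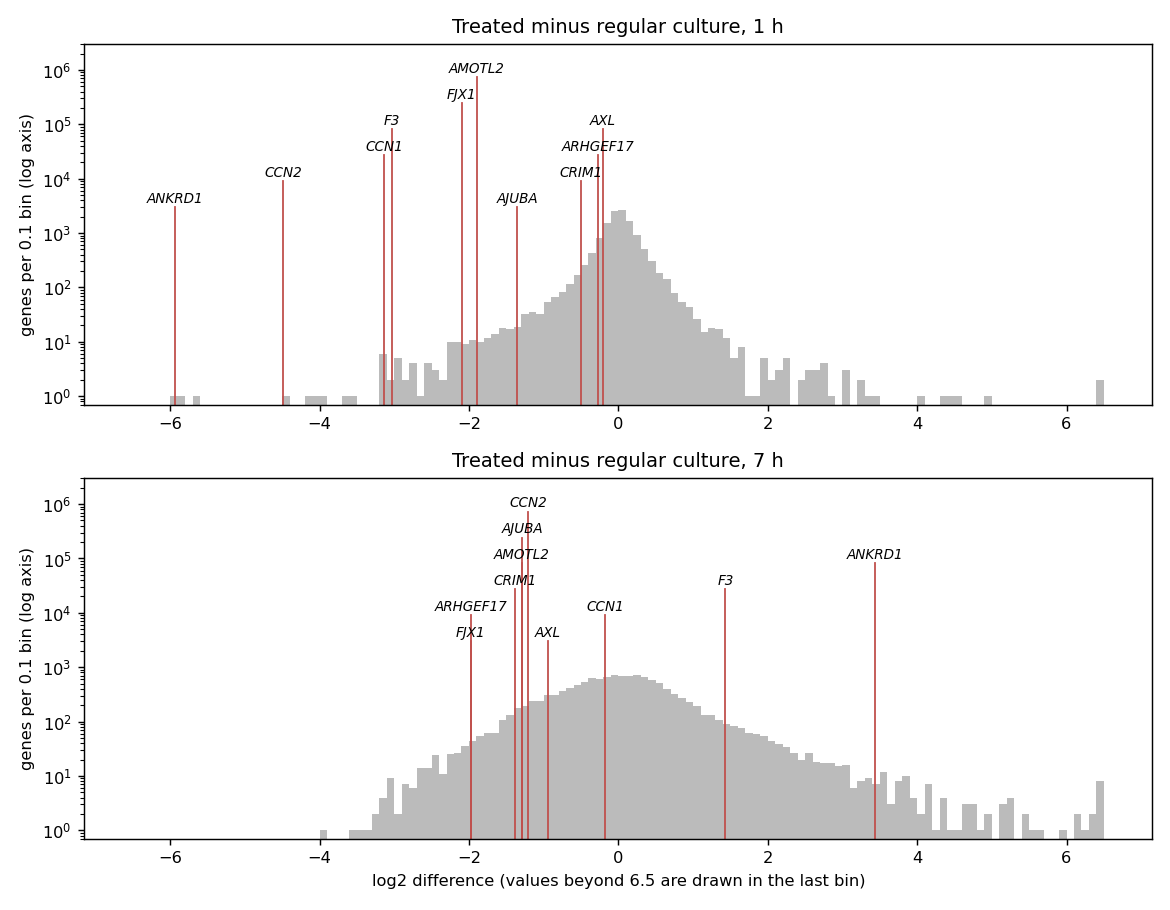
Number of genes (log axis, bins of 0.1) by log2 difference between treated and regular cells at 1 h (top) and 7 h (bottom), with the 10 targets marked by red lines whose heights have no meaning. At 1 h ANKRD1, CCN2, CCN1 and F3 lie at the far lower end of a narrow distribution, while at 7 h the 8 low targets lie inside a wide one, with FJX1 at -1.98 as the lowest.

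Genes whose 8 log2 values, each centred on the gene's mean, lay closest to those of CCN1, CCN2 and ANKRD1 were sought among 10578 other genes with at least 5 CPM on average. For CCN1 they were LIF, a cytokine of the interleukin 6 family (distance 0.61), NUAK2, a kinase related to AMPK (1.34), and GBP1, a guanylate-binding protein (1.57). LIF stood at 689 ± 34.9 and 5908 ± 13.5 CPM in treated and regular cells at 1 h and at 332 ± 13.7 and 478 ± 35.1 CPM in treated and regular cells at 7 h (mean ± SD, n = 2). For CCN2 they were CXCL1, a neutrophil chemokine (1.07), NUAK2 (1.35) and LIF (1.56). For ANKRD1 the nearest genes lay at larger distances: CXCL8, another chemokine (3.38), HBEGF, a ligand of the EGF receptor (3.67), and IL11, a cytokine (4.28). Such distances grow with the size of the log2 changes, and the size of those of ANKRD1 depends on the prior. Its larger distances are therefore not read as a less shared course. HBEGF stood at 10.5 ± 0.731 and 96.4 ± 0.656 CPM in treated and regular cells at 1 h, and at 46.9 ± 0.779 and 7.19 ± 0.0517 CPM in treated and regular cells at 7 h. These distances describe 8 libraries of 4 groups. Among the 10 targets themselves, CCN1 and CCN2 were each other's nearest (1.81), as were AJUBA and FJX1 (1.04) and AXL and CRIM1 (1.07).

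A further list held 28 other genes known as YAP/TAZ targets in various cells, of which 26 were tested. At 1 h 16 of them were lower in treated cells and none was higher, where 20.7% and 17.7% of all tested genes were called in these directions. The median log2 difference was -0.27 against 0.01 over all tested genes; 4 were called higher under quantile normalization and 3 under total-read scaling. The lowest value was that of EDN1, which encodes endothelin 1 (-5.80). It had 0.223 ± 0.00732 CPM in treated and 15.4 ± 1.59 CPM in regular cells, from 10 and 8 against 468 and 745 reads. Next came NUAK2 (-3.18) and THBS1, which encodes thrombospondin 1 (-2.26). At 7 h 17 were lower and 6 higher, against 41.1% and 40.5% of all tested genes, with a median of -0.44 against -0.01 over all tested genes. THBS1 was again lower (-2.25), with 698 ± 38.3 CPM in treated and 3318 ± 135 CPM in regular cells. FSTL1, a secreted follistatin-like protein (-1.26), and NUAK2 (-1.18) came next. EDN1 differed by -0.23 and did not pass (limma adjusted p = 0.315), at 1.06 ± 0.0160 CPM in treated and 1.26 ± 0.125 CPM in regular cells.

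The other targets that were higher at 7 h were led by GADD45A, a growth arrest gene that is also a p53 target (2.78), MYC, a growth-promoting transcription factor (2.19), and LATS2, a Hippo kinase that phosphorylates YAP and TAZ (1.89). Each of these had been lower at 1 h, by -1.16 for GADD45A, -1.48 for MYC and -1.18 for LATS2. LATS2 stood at 33.1 ± 2.22 and 75.0 ± 1.76 CPM in treated and regular cells at 1 h, and at 77.8 ± 0.856 and 20.996 ± 0.829 CPM in treated and regular cells at 7 h. As for ANKRD1 and F3, the level of LATS2 in regular cells was lower at 7 h than at 1 h. GADD45A, MYC and LATS2 kept their sign at both times with either alternative scaling.

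**Figure D5:**
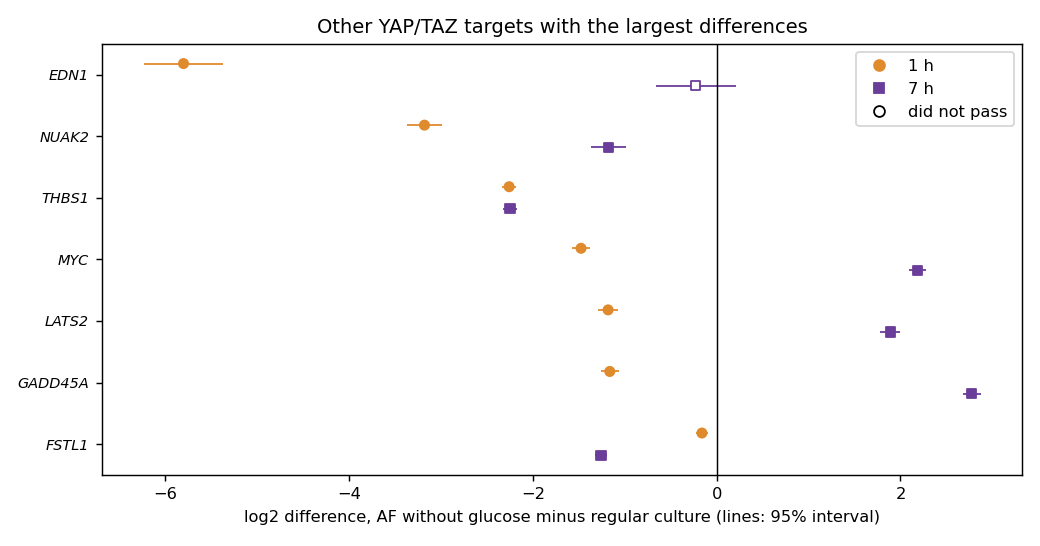
Log2 difference between treated and regular cells at 1 h (circles) and 7 h (squares) for the 7 other YAP/TAZ targets with the largest called differences in a direction at a time, sorted by the 1 h value, with 95% intervals from limma; open symbols did not pass. EDN1, NUAK2 and THBS1 are lowest at 1 h, and MYC, LATS2 and GADD45A lie left of 0 at 1 h and right of 0 at 7 h.

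The genes of both co-activators differed by less than 1.5-fold between treated and regular cells. YAP1 stood at 64.0 ± 2.84 CPM in treated and 70.0 ± 0.546 CPM in regular cells at 1 h, and at 66.6 ± 0.836 and 75.0 ± 3.61 CPM in treated and regular cells at 7 h; it was called lower by 0.13 and 0.17 on the log2 scale (differences -0.13 and -0.17), and the 1 h call was lost with either alternative scaling. WWTR1, the gene of TAZ, includes any reads of the transgene. It stood at 388 ± 4.41 and 405 ± 15.3 CPM in treated and regular cells at 1 h (-0.06, not passed) and at 304 ± 7.84 and 248 ± 6.0 CPM in treated and regular cells at 7 h (0.30, but 0.07 under quantile normalization and -0.02 under total-read scaling, neither passed). Of 14 genes of the co-activators, their partners and the kinase cascade, 7 were lower and none higher at 1 h (20.7% and 17.7% of all tested genes), led by the TEAD cofactor gene VGLL3 (-1.85), NF2, which encodes the upstream regulator merlin (-0.55), and the scaffold gene SAV1 (-0.47). At 7 h 7 were lower, led by NF2 (-1.56), VGLL3 (-0.82) and the kinase gene LATS1 (-0.75), and 5 were higher, led by the LATS co-activator gene MOB1B (1.19); under total-read scaling 9 were lower and 1 was higher. The counts of 7 lower and 5 higher among the 14 were near the shares of 41.1% lower and 40.5% higher over all tested genes. Total-read scaling also moved the calls over all 13028 tested genes, to 7581 lower and 3144 higher at 7 h.

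A list of 18 genes regulated by serum response factor and actin dynamics, which also act on some of the 10 targets, had 16 tested members. At 1 h all 16 were lower (20.7% of all tested genes), with a median log2 difference of -0.88. The lowest values were those of CNN1, a calponin (-2.66), SRF, the factor itself (-2.30), and ZYX, the adhesion protein zyxin (-1.59). At 7 h 12 were lower and 2 higher (41.1% and 40.5% of all tested genes). Lowest were the actin genes ACTB (-1.23) and ACTG1 (-1.23) and the tropomyosin gene TPM1 (-1.11); under quantile normalization both actin genes were at -2.02 and the myosin gene MYH9 (-1.74) lay below TPM1 (-1.53). Higher at 7 h were FHL2, a LIM domain cofactor (1.12), and ZYX (0.25); the ZYX value turned to -0.07 under total-read scaling. SRF stood at 43.6 ± 1.23 and 214 ± 4.46 CPM in treated and regular cells at 1 h, and at 23.5 ± 3.51 and 37.5 ± 0.925 CPM in treated and regular cells at 7 h, so its regular level was also lower at 7 h.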

How the data were processed

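Per the submitters' processing notes, reads were aligned with HISAT2 to GRCh38 and processed with edgeR; for versions, counting and gene filtering the sources used here give nothing. Libraries were made with SMART-Seq mRNA HT and Nextera XT kits, per the labels' protocols, and do not mark strand. The authors deposited log2 CPM values with a small prior (0.0522 CPM, from the values), on a scaling between libraries already applied: library sizes were 0.838 and 0.846 times the listed reads in treated cells at 7 h and 1.04 to 1.09 times elsewhere. With the prior subtracted, 100% of values were whole reads to within 0.1 read. The column headings give the group and no replicate number, and no column was left unassigned.

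Genes with at least 1 CPM in 2 libraries were kept (13028; 8 removed, none a target), and limma 3.58.1 (R 4.3.3) was run on the log2 values as deposited, 1 mean per group over 8 libraries, with an intensity trend and Benjamini-Hochberg adjustment over all tested genes. Log2 differences understate changes of genes with few reads. The 2 libraries of each group differed by more than counting error (chi-square 2.79 to 3.62 per degree of freedom) and were counted separately. The targets, lists and contrasts were chosen with earlier results of these data known. Genes named outside the targets were up to 3 per direction of each list and time, the 3 nearest genes of CCN1, CCN2 and ANKRD1, and YAP1 and WWTR1; LIF and HBEGF levels and marker levels were picked after their values were seen. The procedure was tested on simulated data. Alternatives were other scalings, pseudocounts, filters and test options, and leaving out each library.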

Additional observations from a re-analysis of the deposited data

Results flagged for a closer look

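For 8 of the 10 targets the difference between treated and regular cells was not the same at the 2 times, by limma's test of the difference itself. Over all tested genes 36.7% were called higher and 37% lower in this test, so the count of 8 is near the share over all tested genes. The 7 h difference minus the 1 h difference was 2.96 for CCN1, 3.29 for CCN2, 9.38 for ANKRD1, 0.61 for AMOTL2 and 4.47 for F3. It was -0.74 for AXL, -1.70 for ARHGEF17 and -0.88 for CRIM1. ANKRD1 and F3 changed sign between the times, and the other 6 kept theirs. Scaling to the summed reads of the table (total-read scaling) shifts the median of this quantity over all genes by -0.38, and all 8 calls held under it.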

How the results depend on the processing

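Over 17 alternatives, 831 of 835 differences of single targets kept their side of the threshold and, where called, their direction. The others were AJUBA (-0.31) and FJX1 (-0.26) in the difference between times and CRIM1 (-0.081) in treated cells over time, all reversed under total-read scaling, and FJX1 in the difference between times, which passed (0.24) without treated 7 h library B. Total-read scaling shifts the median of all genes by -0.31 at 7 h and gave 5 targets with a lower difference between times, in place of 3. It also gave 3937 higher genes at 1 h (2303 in the deposited scaling) and 3144 at 7 h (5280), so that higher genes made up 68.4% and 29.3% of the calls in place of 46.1% and 49.7%. For the difference between times it gave 7583 lower and 2515 higher genes (4823 and 4783; 24.9% of calls higher in place of 49.8%), and for treated cells over time 8565 lower and 2248 higher genes (5305 and 4809; 20.8% in place of 47.5%). Under quantile normalization 57.8% of the calls at 1 h were higher. A mean of at least 5 CPM removed ANKRD1, leaving 1 target higher at 7 h. Without an intensity trend CCN1 at 7 h was just called (adjusted p = 0.0485). Leaving out each library in turn gave 10 lower targets at 1 h and 8 lower and 2 higher targets at 7 h in every case. No paired analysis was possible because the columns carry no replicate numbers. ANKRD1, with 5 and 3 reads in treated cells at 1 h, is the target whose fold is limited by depth.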
